A study of Rattus norvegicus with 18 samples.

Results

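Gastrocnemius RNA of 6 aged calorically restricted rats (aged CR rats) was compared with that of 6 young rats fed ad libitum (AL), and all genes were tested in a fit of these 12 libraries alone, out of 18 libraries in the series. The gastrocnemius is a large muscle of the calf. The animals were male Brown Norway rats. Both groups ate the same chow freely until 2 months of age and were then caged singly with 12 h of light per day. From that age the young rats went on eating freely and were killed at 6 months, while the CR rats received 55% of the control intake, as a weighed ration late each morning, and were killed at 28 months. The remaining 6 libraries came from rats fed AL and killed at 28 months (aged rats fed AL). They are compared below with each of the 2 groups, in fits that include them, and are not part of the main fit. None of the 18 libraries is labelled as young CR. The comparison asks how far muscle of restricted old animals stands from that of young animals. Age and diet differ together between its 2 groups, so their parts in a difference cannot be told apart. The second number in the column names, used below to name some libraries, also ran in 1 block per group. It ran from 8822 to 8828 for aged CR rats and from 8883 to 8888 for young rats. The labels do not state what this number stands for. An effect of handling that went with it could not be told apart from one of the group either.

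Skeletal muscle is made of long multinucleate fibres with many mitochondria, and with age it loses mass and force. Its RNA also holds that of the vessels, nerves, connective tissue and immune cells between the fibres. In such bulk tissue, fewer cells of a type and less RNA per cell cannot be told apart. CR, a lasting cut in food intake without malnutrition, lengthens life in many laboratory animals and a daily ration also sets the hour of feeding. The deposited table identifies genes by Ensembl identifier and genome position. Symbols are not paired with these identifiers in the files, so the genes below are described by position, level, length and chromosome, and only 2 that rose and 2 that fell are given by identifier. For the same reason marker genes of muscle or of other cell types were not analysed here, and the labelled tissue was not checked against them.

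The 12 libraries held between 19940496 counts (rat 3, young) and 27432767 counts (library 8828, aged CR). Of 32883 gene identifiers, 3941 had no count in these libraries and 14084 passed the filter on low counts and were tested. In a principal component analysis, the first component took 30.7% of the variance and the second 15.9%. On the first component all aged CR libraries lay above all young libraries, but library 8828 stood far from the others of its group, at 77.6 with the next at 19.2. On the second component the other 5 aged CR libraries lay between 14.2 and 33.7 and the young rats between -31.9 and 5.16, while library 8828 lay at -17.5, among the young rats. Library 8828 also had 456 genes at 1 CPM or more (counts scaled to a common library size with TMM factors) that were at least 2 times higher than in each of the other 11 libraries. The next largest number was 67, in rat 14. The main counts of calls are therefore also given without library 8828.

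**Figure D1:**
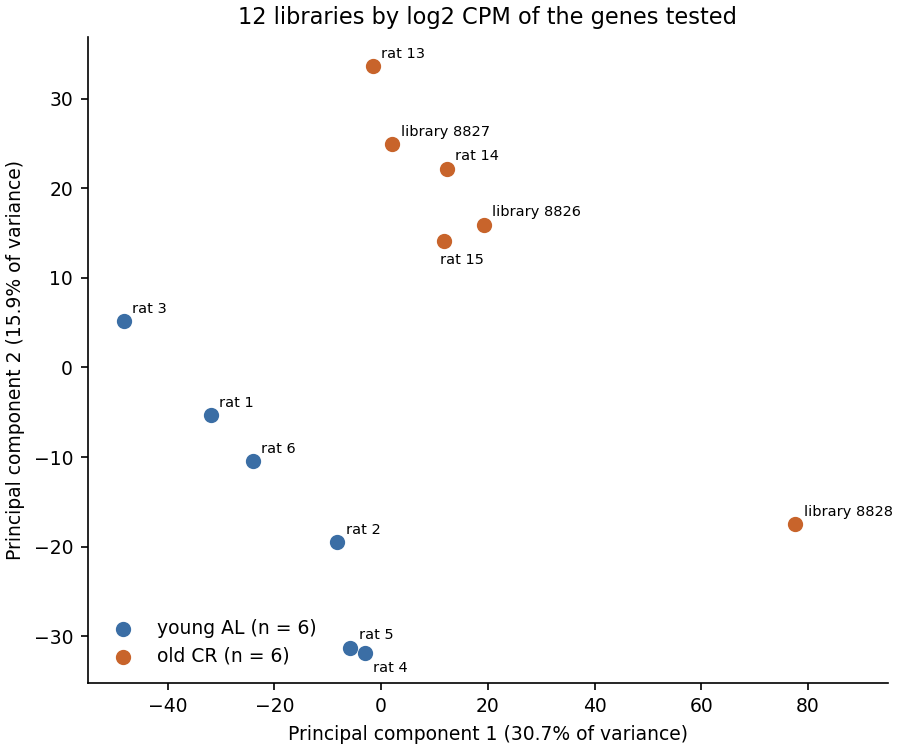
Each point is 1 of the 12 libraries, placed by its first (x axis) and second (y axis) principal component of log2 CPM, with the share of variance on each axis. The 6 aged CR libraries (old CR) lie to the right of the 6 young libraries (young AL), and library 8828 lies apart at 77.6 on the first component.

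Gene expression differed between the groups in both directions. Calls required a fold change of at least 1.5 together with a Benjamini-Hochberg adjusted p no larger than 0.05 in edgeR's quasi-likelihood test. They comprised 441 of 14084 genes (3.13%), of which 212 (1.51%) were higher and 229 (1.63%) lower in aged CR rats. An unadjusted p under 0.05 was found for 3261 genes. Upper-quartile scaling moved the balance to 268 genes higher and 191 lower, that is from 48.1% to 58.4% of calls on the higher side. The median log2 fold change of all genes tested was 0.01 under the main scaling and 0.06 under that one. DESeq2's Wald test on the same libraries called 440 genes higher and 515 lower.

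The changes were mostly moderate. Among the higher genes the median log2 fold change was 1.02 (quartiles 0.76 and 1.51), and 109 of the 212 were at least 2 times and 28 at least 4 times higher. Among the lower genes it was -0.92 (quartiles -1.30 and -0.72), with 97 of 229 at least 2 times and 10 at least 4 times lower. The median SE (standard error of a log2 fold change) was 0.20 for the higher genes, 0.19 for the lower genes and 0.16 for all genes tested. For 479 tested genes (3.4%) the 2 groups had no overlap in values, 259 with all aged CR libraries above and 220 with all below. Among the called genes this held for 122 of the 212 higher and 120 of the 229 lower genes, which the test had selected for their separation.

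The number of calls depended on single libraries. It ranged from 243 to 569 over the 12 fits that left out 1 library each. It was 243 without library 8826, 256 without rat 5 and 271 without rat 6. The higher calls numbered 108 without library 8826, 112 without rat 5, 117 without rat 6 and 137 without rat 3. The lower calls numbered 135 without library 8826, 144 without rat 5 and 345 without rat 2. In all 12 of these fits, 79 of the higher and 109 of the lower genes were called again in the same direction. In every one of the 20 alternative fits, 53 higher and 99 lower genes were.

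Library 8828 did not decide most calls, although it was often the extreme. Of all aged CR libraries it was highest in 100 of the 212 higher genes (47.2%) and lowest in 112 of the 229 lower genes (48.9%). Without it, 417 genes were called, among them 161 of the 212 and 181 of the 229. Among the young rats, rat 3 had the lowest value in 59 of the higher genes (27.8%) and the highest in 78 of the lower genes (34.1%). With each called gene scaled so that the young mean is 0 and the aged CR mean is 1 on a log2 scale, library 8828 had a median of 1.28 over the higher and 1.23 over the lower genes. The other 5 aged CR libraries had medians from 0.89 to 1.06 and from 0.90 to 1.02. The young rats had medians from -0.13 to 0.08 and from -0.25 to 0.16. These genes were selected for separating these libraries and the scale sets the group means, so nothing is read from these medians. Within groups the spread was similar, with a median SD of log2 CPM of 0.25 in young rats and 0.24 in aged CR rats (0.20 without library 8828).

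Calls in both directions were made at every level of abundance, in shares that were not tested against each other. CPM is not divided by gene length, so a level here is one of counts. The genes tested were divided into 5 equal groups (quintiles) by their mean level. Of the 2817 genes in the highest quintile, at 50.4 CPM and above, 82 (2.91%) were called lower and 27 (0.96%) higher. Of the 2817 in the second lowest quintile, from 2.51 to 8.68 CPM, 33 (1.17%) were called lower and 76 (2.70%) higher. In the lowest quintile 17 of 2816 genes were lower and 39 higher. The median level of the higher genes was 4.82 CPM in young and 10.0 CPM in aged CR rats. That of the lower genes was 39.6 and 21.3 CPM, against 13.6 CPM in young rats over all genes tested. The median log2 fold change went from 0.14 in the lowest quintile to -0.07 in the highest. With upper-quartile scaling these were 0.19 and -0.02, against a median of 0.06 for all genes, and without library 8828 they were 0.08 and -0.04. The lower calls in the highest quintile numbered 64 without library 8828, 50 without library 8826 and 53 without rat 6. The higher calls in the second lowest quintile numbered 65 without library 8828, 29 without rat 6, 32 without rat 5, 32 without library 8826, 41 without rat 3 and 50 without rat 4. They numbered 159 with DESeq2, 30 when all 18 libraries were fitted, 41 with library totals as the only scaling and 48 with no filter on low counts.

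**Figure D2:**
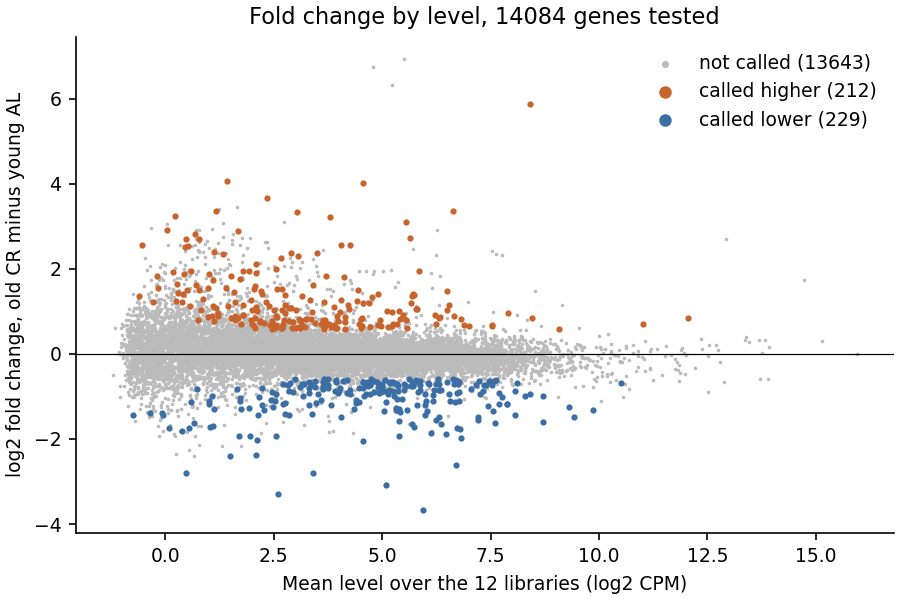
Each point is 1 of the 14084 genes tested, with the mean level over the 12 libraries in log2 CPM on the x axis and the log2 fold change of aged CR (old CR) minus young rats (young AL) on the y axis. The 212 genes called higher are denser at low and middle levels and the 229 called lower at middle and high levels, and a few large fold changes were not called.

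Calls in both directions were also made among genes with few and with many exonic bases, in shares that were not tested against each other. Of the 2988 genes with more than 4000 exonic bases, 71 (2.38%) were called lower and 33 (1.10%) higher, against 158 (1.42%) and 179 (1.61%) of the 11096 shorter genes. Long genes also had higher counts, with a median of 25.6 CPM in young rats against 11.9 CPM. Within the highest quintile of level, 34 of 899 long genes (3.78%) and 48 of 1918 shorter genes (2.50%) were called lower. Within the quintile below it these were 21 of 723 (2.90%) and 36 of 2094 (1.72%), and in the second lowest 7 of 439 (1.59%) and 26 of 2378 (1.09%). In the other 2 quintiles the share of long genes was not the higher one, with 7 of 519 (1.35%) against 33 of 2298 (1.44%) in the middle and 2 of 408 (0.490%) against 15 of 2408 (0.623%) in the lowest. Without library 8828 the long genes called lower were 28 in the highest quintile and 16, 7, 9 and 1 in those below it in turn, against 36, 34, 31, 33 and 18 shorter genes. For the 346 genes with more than 8000 exonic bases the median log2 fold change was -0.16. In aged rats fed AL against young rats their median was -0.19, and the 2 values share the young rats. Upper-quartile scaling moved the median of genes over 4000 exonic bases from -0.05 to 0.01 and that of the shorter genes from 0.03 to 0.08. Under it 56 long genes were called lower and 51 higher, against 135 and 217 of the shorter genes. The median of the long genes was -0.02 without rat 3 and -0.08 without rat 2. The number of long genes called lower was 61 without library 8828, 40 without library 8826, 43 without rat 5, 44 without rat 3, 47 without rat 6 and 133 without rat 2. It was 112 with DESeq2 and 47 when all 18 libraries were fitted. RNA integrity values per library were not used here, and their part in this pattern was not tested.

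The gene that fell with the lowest adjusted p was ENSRNOG00000014448, on the plus strand of chromosome 1 of Rnor_6.0 from 178039063 to 178137465, with 2973 exonic bases. Its level in the young rats 1 to 6 was 58.2, 62.3, 66.2, 50.2, 68.1 and 59.4 CPM. In the aged CR group it was 4.91 CPM in rat 13, 6.79 in rat 14, 5.99 in rat 15, 6.15 in library 8826, 10.49 in library 8827 and 8.28 in library 8828. The lowest young rat was thus well above the highest aged CR library. The mean fell from 60.7 ± 6.40 to 7.10 ± 2.00 CPM (SD, n = 6 each), a log2 fold change of -3.09 (SE 0.16, adjusted p = 3.68e-07, edgeR). Aged rats fed AL lay between, with 17.3 to 34.3 CPM when scaled over all 18 libraries. In the fit of all libraries the log2 fold change was -1.33 for aged rats fed AL against young rats and -1.78 for aged CR rats against aged rats fed AL (adjusted p = 7.85e-05, edgeR).

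ENSRNOG00000007591, on the plus strand of chromosome 13 from 48745860 to 48766283, fell from a higher to a lower range with little spread within groups. The young rats 1 to 6 had 10.6, 8.94, 10.8, 9.13, 8.71 and 10.4 CPM. The aged CR values were 3.71, 3.87 and 3.404 CPM in rats 13 to 15 and 3.19, 3.39 and 4.27 CPM in libraries 8826 to 8828. The 2 groups did not overlap, and the log2 fold change was -1.42 (SE 0.12, adjusted p = 2.49e-05, edgeR). In aged rats fed AL the range was 6.66 to 9.78 CPM, with a log2 fold change of -0.35 against young rats (adjusted p = 0.0886, edgeR). The direct difference of aged CR rats from aged rats fed AL was -1.08 (SE 0.12, adjusted p = 0.000164, edgeR).

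ENSRNOG00000021027, on the plus strand of chromosome 1 from 101687855 to 101692846, rose by the largest amount of the 4 genes given by identifier. The young rats 1 to 6 had 13.7, 13.4, 10.8, 15.4, 11.3 and 13.9 CPM. The aged CR values were 105.1, 107.2 and 108.3 CPM in rats 13 to 15 and 82.5, 64.1 and 55.0 CPM in libraries 8826 to 8828. Even the lowest of them was more than 3 times the highest young rat, although the aged CR libraries differed more among themselves than the young ones did. The log2 fold change was 2.73 (SE 0.18, adjusted p = 3e-06, edgeR). Aged rats fed AL had 27.9 to 78.9 CPM. Their log2 fold change against young rats was 1.77. The difference of aged CR rats from them was 0.95 (SE 0.24, adjusted p = 0.0489, edgeR), and it was called in 5 of 21 alternative fits, with adjusted p from 0.00784 to 0.112. The fits that lost this call left out any 1 of the 6 young rats, of rats 7, 9, 10 and 12 among the aged rats fed AL, of rats 13 to 15 or of libraries 8826 and 8827, or held the aged groups alone.

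ENSRNOG00000006334, on the minus strand of chromosome 15 from 19473373 to 19541815, separated aged CR rats from both groups fed AL. The young rats 1 to 6 had 18.03, 15.1, 17.1, 15.7, 13.7 and 14.6 CPM. The aged CR values were 36.9, 33.3 and 35.2 CPM in rats 13 to 15 and 36.9, 37.0 and 35.2 CPM in libraries 8826 to 8828. The spread among aged CR libraries was 1.47 CPM (SD) around a mean of 35.7, and 1.61 around 15.7 in young rats. The log2 fold change was 1.19 (SE 0.08, adjusted p = 3.75e-06, edgeR). Aged rats fed AL had 13.8 to 21.7 CPM, a log2 fold change of 0.17 against young rats (adjusted p = 0.355, edgeR). Aged CR rats were above them by 1.01 (SE 0.10, adjusted p = 7.85e-05, edgeR). None of these 4 genes shares exon bases with another gene in the annotation.

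**Figure D3:**
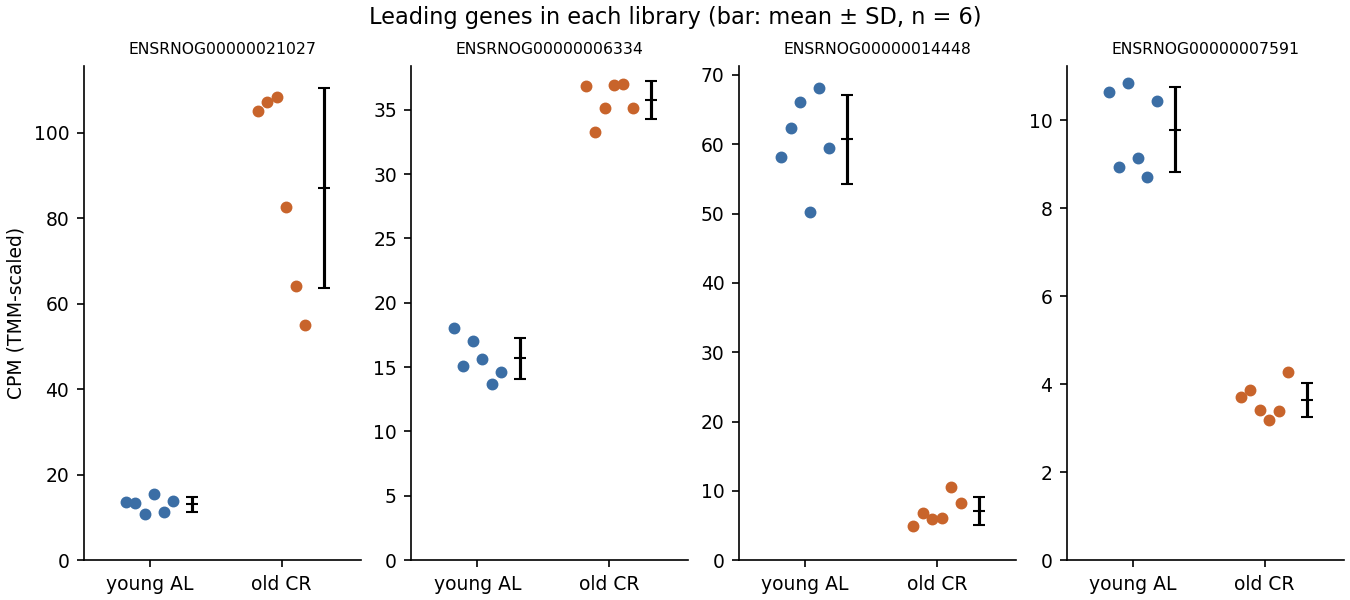
Levels in CPM (TMM-scaled, y axes starting at 0) of the 4 genes given by identifier, with 1 point per library for young rats (young AL) and aged CR rats (old CR) and bars for the mean ± SD (n = 6). The groups do not overlap in any panel, and the aged CR libraries range from 55.0 to 108.3 CPM for ENSRNOG00000021027.

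For the 10 higher genes with the lowest adjusted p, log2 fold changes ran from 0.80 to 3.10 with SEs from 0.08 to 0.35. They lay on 6 chromosomes. The 10 lower genes had log2 fold changes from -3.09 to -1.11 with SEs from 0.12 to 0.22, and lay on 9 chromosomes. Their levels in young rats ranged from 7.64 to 161 CPM for the higher and from 6.99 to 891 CPM for the lower genes. In all 20 genes, which were selected for their separation, the groups did not overlap and the call was kept in every alternative fit. The direct comparison with aged rats fed AL called 4 of the 10 higher and 5 of the 10 lower genes. Over all genes it called 0.833% higher and 0.546% lower, but these 20 were selected with the same aged CR libraries. One of the 4, ENSRNOG00000021027, was called there in 5 of 21 alternative fits. In aged rats fed AL against young rats the log2 fold changes of the 10 higher genes ran from 0.05 to 2.70, and those of the 10 lower genes from -1.53 to -0.35.

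The genes with the largest fold changes were less even across rats. Of the 10 called genes with the largest absolute change at 1 CPM or more in 6 libraries, 8 were higher and 2 lower in aged CR rats. In 6 of the 8 higher genes library 8828 had the highest value. The largest was a gene on chromosome 1 from 264160129 to 264172729. The young rats 1 to 6 had 5.74, 6.25, 5.08, 22.7, 20.6 and 7.78 CPM of it. The aged CR values were 45.2, 38.7 and 201.5 CPM in rats 13 to 15 and 481.1, 94.7 and 3165 CPM in libraries 8826 to 8828. Every aged CR library was above every young rat, but the aged CR values spanned a wide range with library 8828 far at the top. The log2 fold change was 5.88 (SE 1.15, adjusted p = 0.0135, edgeR), and without library 8828 it was 3.93 (adjusted p = 0.00638). Over all alternatives its adjusted p ran from 4.95e-07 to 0.0378.

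A gene on chromosome 3 from 146365092 to 146373365 rose more evenly, from 9.75 ± 3.32 to 83.9 ± 38.8 CPM (SD, n = 6 each), with a log2 fold change of 3.10 (SE 0.35, adjusted p = 0.000397, edgeR). It was called in all 20 alternative fits. A gene on chromosome 13 from 92894431 to 92988137 went from 2.67 ± 1.52 to 24.8 ± 14.4 CPM (SD, n = 6 each), a log2 fold change of 3.22 (SE 0.47, adjusted p = 0.00225, edgeR), also called in all 20. A gene on chromosome 14 from 19176277 to 19191863 showed the other extreme. It had a log2 fold change of 3.37 (SE 0.86, adjusted p = 0.04, edgeR), and 10 of the 20 alternative fits called it, with adjusted p from 0.00856 to 0.0883. Larger still were 3 log2 fold changes from 6.34 to 6.93 that were not called (adjusted p 0.0534 to 0.0627, edgeR). In each of these a single aged CR library held nearly all the signal. The first, on chromosome 2 from 193778042 to 193783761, had 531 CPM in rat 14 and at most 2.19 CPM in any other library. The others, both on chromosome 6, had 323 and 436 CPM in library 8828 and at most 1.10 and 1.44 CPM elsewhere. That with 323 CPM, from 138092131 to 138093643, lies within the span of that with 436 CPM, from 138054662 to 138662511.

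By chromosome, chromosome 20 had the largest share of genes called higher. It held 20 of 411 genes tested (4.87%), and each of the other autosomes and chromosome X between 0.63% and 2.31%. Its share of lower calls, 10 genes (2.43%), was within the range of the others, from 0.88% on chromosome 4 to 2.70% on chromosome 14. Without library 8828 the chromosome had 16 higher and 8 lower calls, and the higher calls numbered 10 with library totals as the only scaling and 7 when all 18 libraries were fitted. Most of the excess came from 1 end of the chromosome. The genome was divided into windows of 5 Mb, of which 264 held at least 20 tested genes, with a median of 33. The first window of chromosome 20 had 12 higher (12.1%) and 2 lower calls among 99 genes. The next shares were 2 of 20 genes (10.0%) from 40000001 to 45000000 on chromosome 1 and 4 of 43 (9.30%) over the same positions on chromosome 12. No other window had more than 4 higher calls, and 86 windows had no call. In the rat this end of chromosome 20 carries the major histocompatibility complex, a cluster of genes for antigen presentation and other immune functions with many near-identical copies. The genes called here carry no symbols in the files, so which of them belong to that complex was not determined. Classes by level, length and position were chosen after values had been seen.

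**Figure D4:**
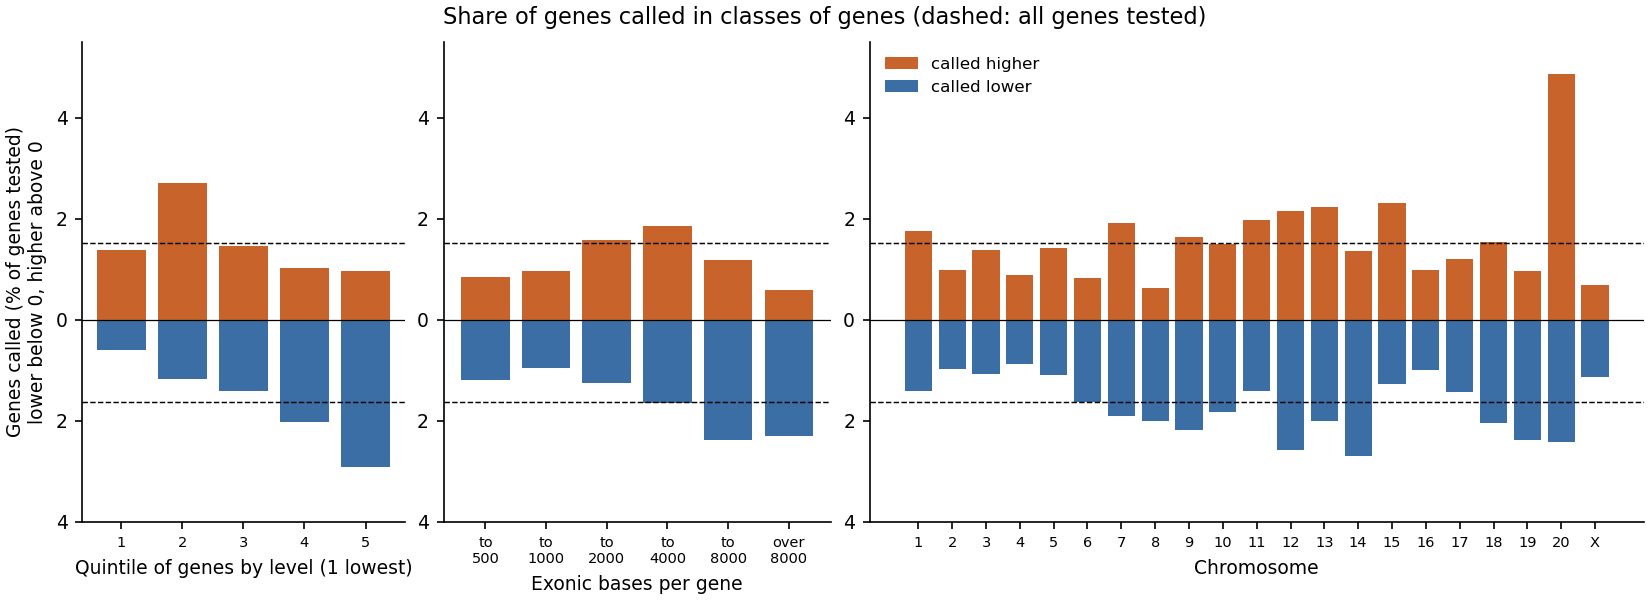
Bars give the percent of tested genes called higher (above 0) and lower (below 0) in aged CR rats, by quintile of expression level, by number of exonic bases and by chromosome, with dashed lines at the shares over all 14084 genes, 1.51% and 1.63%. The lower calls reach 2.91% in the highest quintile of level and the higher calls 4.87% on chromosome 20.

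Within this window the median log2 fold change of all 99 genes was 0.15, and 68 were positive. Over all 14084 genes the median was 0.01 with 7315 positive. In the second lowest quintile of level it was 0.10 with 1766 of 2817 positive, and in the middle quintile 0.02 with 1522 of 2817. The median level of the window's genes in young rats was 8.99 CPM. The 12 higher genes had log2 fold changes from 0.60 to 2.51 with a median of 0.95. Their summed level in the young rats 1 to 6 was 130.9, 141.3, 90.1, 93.3, 121.8 and 104.7 CPM. In the aged CR group it was 201.8, 176.3 and 229.7 CPM in rats 13 to 15 and 222.9, 156.6 and 303.9 CPM in libraries 8826 to 8828. Library 8828 was again the highest, and it was so for 9 of the 12 genes singly. Without it 8 genes were called. The number was 5 without rat 3, 6 each without rat 4, rat 6, rat 15 or library 8826, and 7 without rat 5. Only 3 were called when all 18 libraries were fitted and 5 with library totals as the only scaling. In aged rats fed AL against young rats the same 12 genes had a median log2 fold change of 1.11. When the aged groups were compared directly none of the 12 was called (edgeR), with a median of -0.08 between them. Among all genes tested between these groups, only 0.833% passed as higher and 0.546% as lower. At such shares the lack of a call among 12 genes is uninformative, and nothing is read from it. Of the 12, 1 had an unadjusted p under 0.05 between the aged groups, and none was called by DESeq2. Of these 12 genes, 4 share exon bases with a gene on the same strand, for which reads assigned to both were not counted, and the values of near-identical copies are uncertain, since reads that fit more than 1 of them were likewise not counted.

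Among them, the gene from 2704148 to 2707120 rose from 6.34 ± 0.81 to 10.9 ± 1.68 CPM (SD, n = 6 each), with a log2 fold change of 0.79 (SE 0.13, adjusted p = 0.00419, edgeR). It was called in 19 of 20 alternative fits, with adjusted p up to 0.0800. The gene from 3146856 to 3150852 rose from 0.37 ± 0.29 to 2.16 ± 0.56 CPM (SD, n = 6 each), a log2 fold change of 2.51 (SE 0.39, adjusted p = 0.00326, edgeR). The gene from 3176107 to 3179818 went from 23.0 ± 6.69 to 46.4 ± 10.7 CPM (SD, n = 6 each), a log2 fold change of 1.01 (SE 0.19, adjusted p = 0.0107, edgeR), with adjusted p up to 0.0580 in the alternatives. The gene from 4892702 to 4896991, with a log2 fold change of 1.48 (SE 0.28, adjusted p = 0.011, edgeR), was the 1 of the 12 that was called in all 20 alternative fits. Most of its span lies within that of another of the 12, from 4694472 to 4896970, and both are counted here.

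Both lower genes of the window fell steeply. The first, from 4877324 to 4879779, had 40, 142.6, 204.7, 77.7, 174.2 and 40.5 CPM in the young rats 1 to 6. In aged CR rats it had 11.5, 10.95 and 16.02 CPM in rats 13 to 15 and 4.15, 7.01 and 3.66 CPM in libraries 8826 to 8828. The young rats differed among themselves by up to about 5 times, and all were above the aged CR group. The log2 fold change was -3.68 (SE 0.50, adjusted p = 0.00136, edgeR), the largest fall in the fit. The second, from 4956541 to 4958492, had 4.04, 13.01, 21.6, 6.71, 14.7 and 4.95 CPM in the young rats. It had 1.39, 1.37 and 1.25 CPM in rats 13 to 15 and 0.67, 0.93 and 0.96 CPM in libraries 8826 to 8828. Its log2 fold change was -3.30 (SE 0.41, adjusted p = 0.000675, edgeR). The same young rats were high and low for both genes, with rat 3 the highest. Both calls were kept in all 20 alternative fits. In aged rats fed AL against young rats the values were -3.38 and -2.87, and neither gene was called between the aged groups, directly compared, in the fit of all 18 libraries or in its 21 alternatives. Only 0.546% of all genes passed as lower in that fit, so these missing calls do not show that the aged groups were alike.

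Some called genes lay close together. At least 3 calls in 1 direction were counted as a run when neighbours lay under 500 kb apart. How often tested genes lie this close was not examined. On chromosome 20 lay 2 runs of higher genes, 6 genes from 2491696 to 3233694 and 7 genes from 3791407 to 5421098. Runs of 3 higher genes lay on chromosome 1 (142246790 to 143278485), chromosome 7 (116632506 to 117151694), chromosome 12 (41200718 to 41363161) and chromosome 13 (80685325 to 80775264). The run on chromosome 12 had log2 fold changes from 1.16 to 1.83 and that on chromosome 13 from 1.05 to 1.34. A run of 3 lower genes lay on chromosome 14 from 82119210 to 82824599, with log2 fold changes from -1.93 to -0.59. The only other run was of 4 lower genes on the mitochondrial chromosome, which is itself shorter than that distance.

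The mitochondrial genome encodes subunits of the respiratory chain together with ribosomal and transfer RNAs of the organelle. Of its genes 24 were tested, and 4 (16.7%) were called lower, against 1.63% over all genes, and none higher, against 1.51%, in aged CR rats (edgeR). An unadjusted p under 0.05 on the higher side was found for 2 genes, and DESeq2 called 1 of them higher. The tested genes differed in direction by position. The first 2 genes of 200 bases or more, from 68 to 1025 and from 1094 to 2664, had positive log2 fold changes, and each of the other 13 genes of that length had a negative one, from -1.64 to -0.20 with a median of -1.02. The 9 tested genes of 80 bases or fewer were also negative, from -1.94 to -0.45. Their median level in young rats was low, at 2.05 CPM, and none of them was called. The median of the 13 long genes stayed between -1.04 and -0.97 under the other scalings. It was -0.86 without library 8828, -0.84 without rat 4, -0.89 without rat 3 and -1.19 without rat 2.

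The 4 called genes lay from 3904 to 4942, 7758 to 7961, 9870 to 10166 and 10160 to 11537, with log2 fold changes of -1.32, -1.07, -1.43 and -1.64 (SEs 0.35, 0.28, 0.35 and 0.33). Their adjusted p was 0.0449, 0.0463, 0.0345 and 0.0168 (edgeR). The gene from 10160 to 11537 had 58.1, 31.0, 153.6, 101.7, 67.4 and 55.3 CPM in the young rats 1 to 6. It had 24.03, 30.5 and 22.8 CPM in rats 13 to 15 and 24.7, 35.2 and 12.6 CPM in libraries 8826 to 8828. Only rat 2 among the young rats lay within the aged CR range, below library 8827. This gene was called in all 20 alternative fits, with adjusted p up to 0.0420. The other 3 were called in 9, 6 and 11 of them. The spans of the genes from 9870 to 10166 and from 10160 to 11537 overlap. That of the gene from 7758 to 7961 overlaps an uncalled gene from 7919 to 8599. Reads assigned to both genes of such a pair were not counted, and their part in these values was not tested. The number of lower calls on this chromosome was 10 without rat 2, 2 without rat 1, 5 without library 8827 and 1 without each of the other 9 libraries. DESeq2 called 12 genes lower and the fit with no filter on low counts 2. The most abundant of the 13 genes, from 5323 to 6867, had 18300 ± 4610 CPM in young rats and 12300 ± 2730 CPM in aged CR rats (SD, n = 6 each), with a log2 fold change of -0.58 that was not called (adjusted p = 0.127, edgeR).

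The first 2 genes varied widely within groups. Together they took 3.10, 2.85, 0.341, 0.867, 0.886 and 0.784% of the counts in the young rats 1 to 6. In the aged CR group they took 1.93, 10.3 and 1.59% in rats 13 to 15 and 8.52, 7.89 and 0.906% in libraries 8826 to 8828. In 3 aged CR libraries the share was far above all others, and the remaining 3 lay within the range of the young rats. The log2 fold changes of 2.70 (SE 1.03, adjusted p = 0.138, edgeR) and 1.73 (SE 0.63, adjusted p = 0.125, edgeR) were not called. Against aged rats fed AL, whose share was 0.662 to 0.977%, the direct comparison called both genes higher, by 4.70 (adjusted p = 0.0219, edgeR) and 2.61 (adjusted p = 0.0262, edgeR). Alternatives called the first in 18 of 21 fits and the second in 13. The first was lost without library 8826 (adjusted p = 0.0553), rat 7 (0.0507) or rat 10 (0.0527). The second was lost without rats 7, 9, 10, 11, 12 or 14 or libraries 8826 or 8827, with adjusted p from 0.0501 to 0.0693. Ribosomal RNA had been depleted before sequencing, and the part of depletion in these values was not tested.

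The share of counts on the other 35 mitochondrial genes was 2.87, 2.36, 4.36, 5.25, 3.35 and 3.66% in the young rats 1 to 6. It was 2.80, 2.12 and 2.78% in rats 13 to 15 and 2.01, 2.50 and 1.58% in libraries 8826 to 8828. The groups overlapped, with rats 1 and 2 within or near the aged CR range. The mean was 3.642 ± 1.04% in young and 2.298 ± 0.481% in aged CR rats (SD, n = 6 each). The difference of -1.34 percentage points had a two-sided exact permutation p of 0.0152 and an adjusted p of 0.0758 over 5 such library measures. For the first 2 genes the exact permutation p was 0.0909 (adjusted p = 0.159). The share of the 20 most abundant genes, the number of genes at 1 CPM and the total count had exact permutation p of 0.0952, 0.563 and 0.418. The smallest p that 6 libraries against 6 allow is 0.00216.

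**Figure D5:**
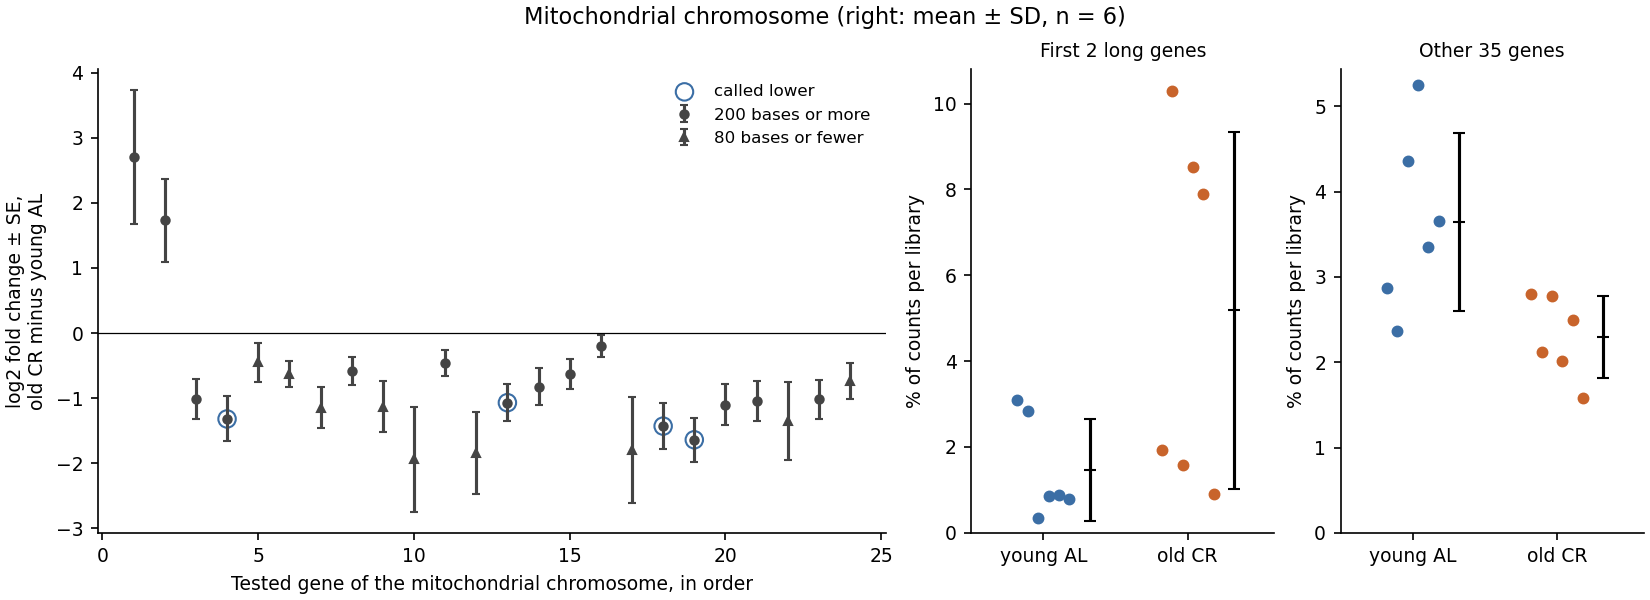
The left panel gives the log2 fold change ± SE of aged CR minus young rats for the 24 tested genes of the mitochondrial chromosome in their order, with circles around the 4 called lower. The right panels give, for each library, the percent of counts on the first 2 long genes and on the other 35 genes, with the mean ± SD (n = 6), where 3 aged CR libraries reach 7.89 to 10.3% for the first 2.

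The called genes were also set beside aged rats fed AL in the fit of all 18 libraries. These values share the young rats, so no agreement is drawn from them. Relative to young rats, the 212 higher genes had a median log2 fold change of 1.0 in aged CR rats and of 0.62 in aged rats fed AL (quartiles 0.25 and 1.18). For the 229 lower genes these medians were -0.93 and -0.54 (quartiles -0.90 and -0.35). The genes had been selected for their change in aged CR rats, which favours the larger value there. The direct comparison of aged CR rats with aged rats fed AL called 0.833% of all genes tested higher and 0.546% lower. Of the 212 higher genes it called 38 (17.9%) higher and 1 lower, and of the 229 lower genes 21 (9.17%) lower and none higher (edgeR). On that side 3 of the 229 had an unadjusted p under 0.05, and DESeq2 called none. These shares rest on the same aged CR libraries that selected the genes, and nothing is read from their excess over the background. The remaining called genes missed the threshold between the 2 aged groups, which does not show that these groups were alike. In all, 202 genes were called between the aged groups, 69 without library 8826, 103 without library 8827, 128 without rat 7, 129 without rat 10, 361 without library 8828 and 385 without rat 8.

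Some of the called genes share exon bases with a neighbour. Of the 910 tested genes that share exon bases with a gene on the other strand, 13 were called higher (1.43%) and 8 lower (0.879%), or 13 and 5 without library 8828. The libraries were strand-specific, but the head of the table shows counting without a strand setting, so the reads of such pairs cannot be told apart. Of the 298 that share exon bases with a gene on the same strand, 8 (2.68%) were called in each direction, against 1.51% and 1.63% over all genes, or 7 higher and 6 lower without library 8828. The remaining 12897 genes held 191 of the higher and 213 of the lower calls.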

How the data were processed

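Gastrocnemius RNA of 18 rats had been sequenced, and 12 libraries (6 aged CR, 6 young AL) were compared. According to the labels and methods, the authors made strand-specific libraries after depletion of ribosomal RNA, trimmed reads with cutadapt 1.2.1, aligned them to Rnor_6.0 with STAR 2.3.0e and counted them on Ensembl release 96 genes with featureCounts 1.6.4. The deposited values are raw counts per gene and library, without normalization. Multi-mapping reads and reads shared by genes were not counted. Replicates were separate rats. For 3 aged CR columns the sample and library numbers belong to different rats of that group, so they carry a library number only, and 0 sample columns were left out.

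Counts were analysed in R 4.3.3 with edgeR 4.0.16 (filterByExpr, TMM, quasi-likelihood test, Benjamini-Hochberg adjustment). Calls used the study's thresholds. Standard errors were taken as the log2 fold change over the root of its F statistic. The direct comparison of the aged groups used a fit of all 18 libraries. Library measures were compared with exact permutation tests (scipy 1.17.1). DESeq2 1.42.0, other scalings, filters, thresholds and omitted libraries were alternatives. On simulated counts for this comparison over 14497 genes, 93% of genes changed 4-fold and 73% changed 2-fold were called, and 4.6% of calls were unchanged genes. This was a single draw of independent libraries with dispersions estimated by edgeR, and no library was made to stand apart from its group. It therefore does not measure the error among the real calls.

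The comparison, gene lists and tests were chosen with earlier results of these data known. The rule for named genes took the 10 lowest adjusted p per direction, the 10 largest changes and list members. As identifiers carry no symbols, 2 identifiers per direction are given and the others by position or range. Gene lists, markers, promoter motifs and the restriction to protein-coding genes were not analysed here.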

Additional observations from a re-analysis of the deposited data

Results flagged for a closer look

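Within each group of 6 libraries, the gap of the most extreme library to its nearest neighbour was divided by the range of the group, for 35 groups of values. The gap was above Dixon's 95% critical value in 3 groups, where chance gives about 1 in 20. On the first principal component library 8828 (aged CR) had a value of 77.6, and the next library one of 19.2, a gap of 0.737 of the range. The same library had 13358 genes at 1 CPM or more with the next at 12850 (gap 0.632). Rat 8, an aged rat fed AL, had 14328 such genes with the next at 13134 (gap 0.684). It is not among the 12 libraries of the main fit, but enters the fit of all 18 libraries. The measures of library 8828 are not independent of each other, and the cause was not tested.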

How the results depend on the processing

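Both directions were called under every alternative. Against 441 calls (212 higher, 229 lower), DESeq2's Wald test gave 955 (440 and 515), the fit of all 18 libraries 290 (112 higher), an adjusted p of at most 0.01 130 (50 and 80) and no fold change minimum 665 (349 lower). Library totals as the only scaling gave 140 higher calls. Leaving out each library in turn gave 243 to 569 calls, 108 to 224 higher and 135 to 345 lower. Against 202 calls between the aged groups, the 12 libraries of these groups alone gave 130, the fit without rat 8 and library 8828 477 and DESeq2 444, and leaving out each library gave 69 to 385. The cause of these shifts was not tested. The 4 genes given by identifier kept their direction and call against young rats throughout, with log2 fold changes from -3.24 to -3.01, -1.47 to -1.37, 2.66 to 2.84 and 1.16 to 1.24. Alternatives for classes and regions were chosen after seeing the data. No paired analysis was possible because the groups share no replicate numbers. The fit of protein-coding genes alone was not run.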
